A study of Rattus norvegicus with 6 samples.

Results

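The 2 Sham+Veh libraries of an RNA-seq study of rat dorsal root ganglia were described here as a baseline, out of 6 libraries in all. They were taken by the group named in their labels, and every one of the 22864 genes in the deposited table was kept. The study profiled the L4 to L6 lumbar ganglia of the operated side in 3 groups of 2 libraries. Sham rats were wild type, were anaesthetised with pentobarbital (40 mg/kg) without the limb ring that the other groups carried for 3 h, and had vehicle injected into the spinal canal daily from day 2. Ganglia were taken on day 7. The baseline is therefore that of rats that had anaesthesia and repeated intrathecal injections, not of untouched rats. The ring size in the labels is one for male rats. Whether the 2 libraries came from separate animals, or from pools, the labels do not say, so the spread between them may be technical.

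A dorsal root ganglion gathers the somata of 1 spinal segment's sensory neurons. Each cell body is wrapped by satellite glial cells, the axons are wrapped by Schwann cells, and the whole sits in collagen-rich connective tissue with vessels and resident macrophages. The neurons divide into large myelinated cells for touch and limb position and small cells for pain, itch and temperature, which differ in their ion channels, growth factor receptors and peptides.

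Levels are given as CPM, the count of a gene scaled to its library's total, first for Sham+Veh 1 and then for Sham+Veh 2. Transcript lengths are not used here. A longer transcript gives more reads for the same number of molecules, so the order of genes below is an order of read shares and not of transcript number. In bulk tissue, fewer cells of a type and less RNA per cell cannot be told apart. With 2 libraries of 1 group no test between groups applies, and a gap is read only against the spread between the libraries.

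The libraries held 18392087 and 18285309 counts. At least 1 CPM in both was reached by 14118 genes (61.7% of the table), with a median of 25.2 CPM, and 4370 genes had no count in either library. Reads were spread over many genes: the 10 highest took 6.35% and 6.37% of the counts, the 100 highest 20.2% in both, and the 1000 highest 50.8% in both. Among 15198 genes with a mean count of at least 10, 93.2% lay within 1.5-fold between the libraries. Sampling noise alone would give a chi-square of about 1 per gene between the libraries, and it was 6.02, so the 2 files do not look like 1 library deposited in duplicate. Whether they are biological or technical replicates this value does not show. The gap shrank with depth: 25.1% of the genes with a mean count of 10 to 100 differed by more than 1.5-fold, against 2.04% at 100 to 1000 and 0.304% at 1000 to 10000. None of the 204 genes above 10000 did.

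The highest-ranking genes of sham ganglia were those of the axon's skeleton and of myelin. The 3 neurofilament subunits, which set the calibre of large axons, held the first 3 ranks. Nefm stood at 12149 and 11512 CPM, Nefl at 8878 and 8644, and Nefh at 8723 and 8093. Together they took 2.98% and 2.82% of all counts. Map1b, a microtubule-associated protein of axons, was also among the first 10, at 6005 and 6116.

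The next places were shared by tubulins, lipid genes and housekeeping genes. Tuba1a (5518 and 5500 CPM) and Tuba1b (3201 and 3344) encode alpha tubulins that are nearly identical, so the split of reads between them is uncertain. Tubb3, the neuronal beta tubulin, stood at 3620 and 3646. Apoe, the lipid carrier that satellite glia secrete, had 4319 and 4644 CPM, and Scd2, which desaturates fatty acids, 4263 and 4409. The iron store Fth1, the actin Actg1, the myelin gene Pmp22, the 14-3-3 protein Ywhag, the chaperones Hsp90aa1 and Hspa8, the elongation factor Eef1a1, Ndrg4 and the glycolytic enzyme Gapdh were also among the first 20, down to 2368 and 2343 CPM for Hspa8.

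**Figure D1:**
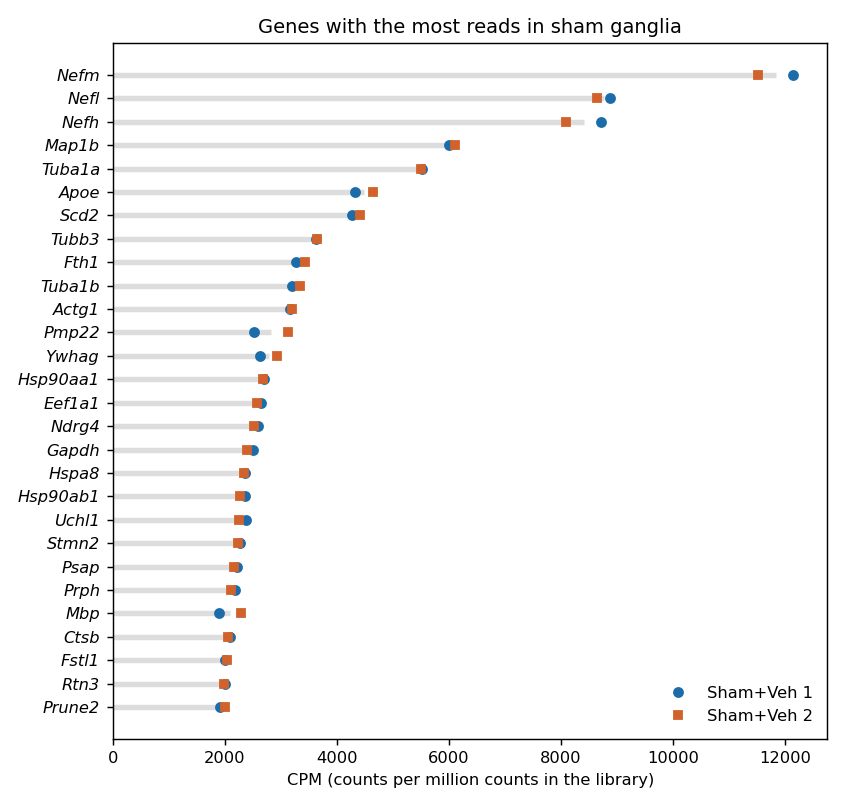
CPM (horizontal axis, linear from 0) of genes among the 30 with the highest mean, 1 gene per line. Circles are Sham+Veh 1, squares Sham+Veh 2 and the grey line ends at their mean; the 3 neurofilament genes lie at 8093 CPM or higher in both libraries, and Pmp22 and Mbp show wide gaps between the circle and the square.

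All 28 general neuronal markers were detected, and together they took 4.86% and 4.67% of the counts. After the neurofilaments and Tubb3, the deubiquitinase Uchl1 had 2375 and 2260 CPM, and Stmn2, which keeps axonal microtubules dynamic, 2273 and 2239. Prph, the intermediate filament of thin axons, stood at 2181 and 2112, so that Nefl collected 4.07 and 4.09 times its reads. The nuclear protein Rbfox3, widely used as NeuN, was low for this list at 85.0 and 81.4 CPM. None of the 28 differed by more than 1.5-fold between the libraries. All had mean counts above 1000, where no more than 0.304% of all genes did, so this does not set neuronal markers apart.

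The transport system of long axons was detected whole. All 15 motor and track genes were present, from 218 to 6061 CPM on average. The kinesin light chain Klc1 had 1875 and 1873 CPM and the dynein heavy chain Dync1h1 1185 and 1181. Kif5a, the neuronal kinesin-1 heavy chain, took 39.2% and 40.0% of the reads of its 3-member family. Of the genes for vesicle release all 22 were detected, led by Snap25, a membrane fusion protein, at 1300 and 1205 CPM. Vamp1 collected 3.43 and 3.18 times the reads of its paralogue Vamp2. Slc17a7 (VGLUT1) stood above Slc17a6 (VGLUT2), at 252 and 214 against 135 and 154 CPM, a ratio of 1.86 in one library and 1.39 in the other. Slc17a8, the remaining vesicular glutamate transporter, was at 2.23 and 1.70.

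Of 20 transcription factors that set sensory neuron identity, 16 reached 1 CPM in both libraries. Etv1, a factor of limb-position neurons, was highest at 216 and 209 CPM. Pou4f1 (Brn3a) had 148 and 162, Prdm12, needed for pain neurons, 134 and 140, and Isl2 97.8 and 113. Drgx followed at 82.8 and 87.7. The 3 developmental factors that start the lineage stood at the other end: Neurog1 had no count, Neurog2 had 0.163 and 0.164 CPM (3 counts in each library) and Neurod1 0.217 and 0.219.

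Markers of every neuron class listed were present, with unequal read shares. The peptidergic pain neuron list summed to 2448 and 2092 CPM, and the non-peptidergic list to 2407 and 2522. Calca, which encodes both calcitonin and the vasodilator peptide CGRP, led the first at 1183 and 980 CPM; its gene count cannot separate the 2 products. Tac1, the substance P precursor, had 303 and 271, Calcb 177 and 141, and the heat and capsaicin channel Trpv1 129 and 127. In the second list, the GDNF receptor Ret had 675 and 707 CPM and the ATP-gated channel P2rx3 577 and 636. Scn11a (Nav1.9), a sodium channel of small neurons, had 426 and 449, the complement regulator Cd55 273 and 260, and the kainate receptor Grik1 143 and 156. Mrgprd, the receptor that defines one class of skin pain fibres, stood at 62.6 and 62.5.

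The myelinated touch fibre list summed to 11128 and 10507 CPM, of which Nefh, described above, made 8723 and 8093. Without Nefh its mean sum was 2410 CPM. The secreted phosphoprotein Spp1 had 891 and 902, the potassium channel Kcna2 525 and 538, the lactate dehydrogenase Ldhb 450 and 442, and the neurotrophin receptor Ntrk2 253 and 243. All 11 genes of this list were detected, though several of them are not restricted to large neurons.

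The lists of cold, itch, light-touch C fibre and limb-position neurons summed to less. Trpm8, the cold and menthol channel, had 130 and 123 CPM. Of the itch markers, Jak1 was highest at 391 and 364, though it is made by many cell types. The more specific Il31ra had 67.7 and 68.1, Sst 55.0 and 51.6, and the natriuretic peptide Nppb only 0.924 and 1.04. Th, the marker of C fibres for light touch in mouse, was at 0.652 and 0.93 CPM, while Fam19a4 of the same list had 7.94 and 9.19. Among limb-position markers Pvalb, a calcium buffer, had 132 and 117, and Runx3 3.32 and 3.77.

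Of 35 neuropeptide and granin genes, 25 were detected, and these ran from Calca to peptides that were close to absent. The processing enzyme Cpe (491 and 507 CPM), the granins Scg3 (397 and 443) and Scg2 (372 and 348) and Tac1 completed the 5 highest. Gal stood at 5.49 and 3.88 CPM, Npy at 0.326 and 0.602, and Vip was counted in Sham+Veh 2 alone, at 0.0547 CPM. Grp had no count in either library. The floor that 3 counts give is 0.163 and 0.164 CPM, so Vip was under it. Of the 4 opioid receptor genes, Oprl1, the nociceptin receptor, collected 12.5 and 15.4 times the reads of Oprm1, the morphine receptor, which was at 2.72 and 2.35 CPM.

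Gene families differed in how far 1 member dominated. In 35 families the leading member was clear of the next in 32, that is, the ranges of the 2 libraries did not overlap. Of all 144 pairs of neighbours in these orders, 13 overlapped. Among voltage-gated sodium channels Scn7a, an atypical member also found in glia, led at 885 and 784 CPM. The pain neuron channels Scn10a (Nav1.8), Scn11a and Scn9a (Nav1.7) followed in that order in both libraries, and Scn10a had 1.87 and 1.83 times the reads of Scn9a. Scn1a had 190 and 182 CPM, and Scn2a and Scn3a, which did not separate, 12.0 to 14.7. Of the beta subunits Scn4b took 57.1% and 57.7% of the reads.

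Some channel families had a single dominant member. Piezo2, the touch channel, took 95.4% (exact 95% interval 94.9 to 95.8) and 95.5% of the Piezo reads, 20.7 and 21.3 times those of Piezo1. These intervals cover counting error only. P2rx3 took 81.4% and 82.9% of the P2X reads, and 84.9 and 74.5 times those of P2rx2, its partner in mixed channels. Kcna2 took 68.7% and 69.4% of the Kv1 reads, ahead of Kcna6 (113 and 112 CPM) and Kcna1 (76.5 and 80.6).

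In other families the reads were shared. The N-type calcium channel gene Cacna1b had 139 and 138 CPM and the P/Q-type gene Cacna1a 129 and 124, a ratio of 1.07 and 1.12. Cacna2d1, the subunit that gabapentin binds, took 44.1% and 45.3% of its family's reads, before Cacna2d3 and Cacna2d2, and Cacna2d4 had 0.109 CPM and 0. Trpv1 and Trpm8 did not separate, at 129 and 127 against 130 and 123 CPM, and neither did Trpv2 (81.1 and 79.2) and Trpa1 (89.9 and 63.2). The acid-sensing channels were unsteady: Asic1 had 1.56 times the reads of Asic3 in one library and 2.49 times in the other, as Asic3 was at 147 and 79.8 CPM.

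**Figure D2:**
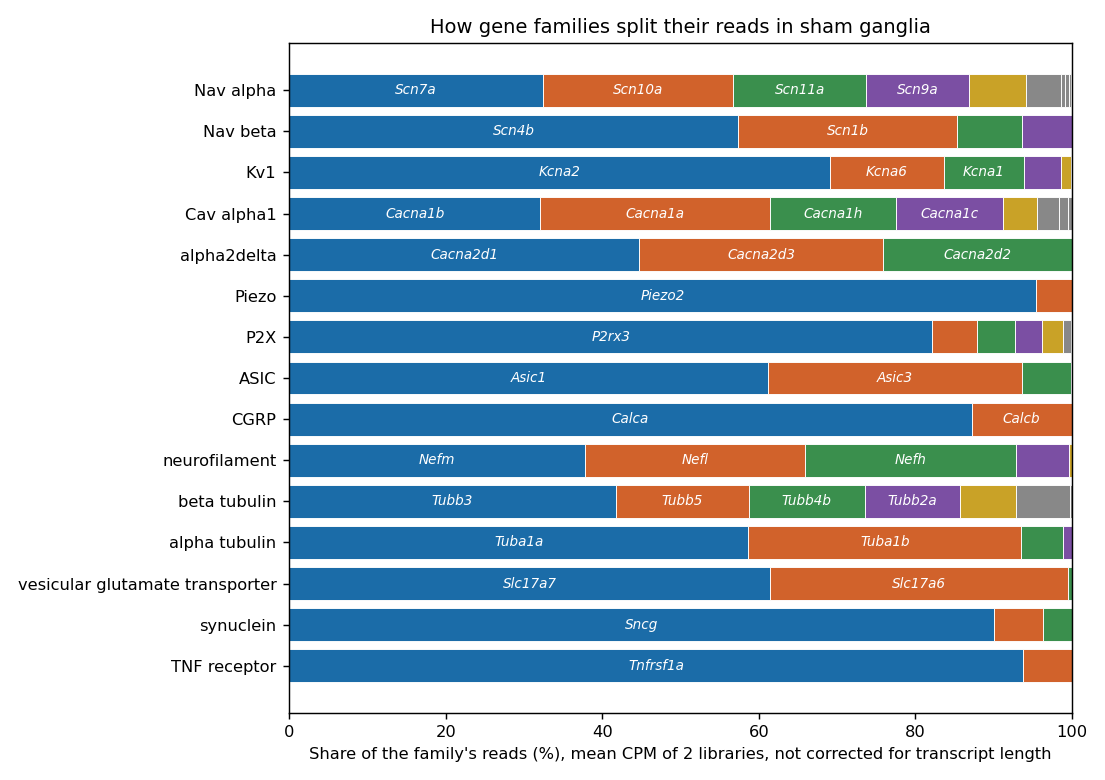
Share of each family's reads (horizontal axis, %, from the mean CPM of both libraries) taken by its members in 15 families, drawn as stacked bars in falling order; members from the sixth on share the grey colour, and members under 9% carry no name. Piezo, TNF receptor, synuclein and CGRP are led by 1 gene, while the Nav alpha and Cav alpha1 bars are split among at least 4.

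Growth factor receptors and their partners kept the same order in both libraries. Ngfr (p75), a low-affinity receptor also present in glia, had 745 and 753 CPM, before Ntrk2 (253 and 243) and Ntrk3 (35.2 and 31). Of the co-receptors of Ret, Gfra1 had 265 and 286 CPM, Gfra2 107 and 113, Gfra3 53.9 and 49.8, and Gfra4 2.88 and 2.84. Smaller families outside the channels also had clear leaders, with exceptions. Sncg took 90.6% and 89.5% of the synuclein reads. Calca collected 6.67 and 6.97 times the reads of Calcb. For Eno2 and Eno1, and for Ldhb and Ldha, the ranges of the 2 libraries overlapped.

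Glial genes took the next large share. All 15 satellite glia markers were detected at 8625 and 9010 CPM in sum, of which Apoe alone was 50.8%. S100b, a calcium-binding protein of glia, had 1370 and 1190, and Hmgcs1, an enzyme of cholesterol synthesis, 998 and 1130. Fasn, the fatty acid synthase, had 459 and 520. Markers that define satellite cells more narrowly were lower: the potassium channel Kcnj10 had 47.4 and 43.4 CPM, and Fabp7 17.2 and 17.7. Gfap, the filament that rises in activated glia, was at 11 and 18.

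All 19 markers of myelinating Schwann cells were detected, at 13530 and 16217 CPM in sum. Pmp22 had 2522 and 3135 CPM, Mbp 1893 and 2293, and Prx, which links the sheath to its basal lamina, 548 and 689. Drp2, its partner at the Schwann cell surface, had 263 and 327. The list of non-myelinating Schwann cells summed to 4227 and 4164 CPM and was led by Apod, a lipid carrier, at 1255 and 1340, followed by Scn7a, Ngfr, L1cam (550 and 536) and Ncam1 (273 and 257).

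Connective tissue was well represented. All 15 fibroblast markers were detected, at 4622 and 4864 CPM. The fibril collagen Col3a1 had 1012 and 1058 and the proteoglycan Dcn 992 and 1101. Col1a1 had 797 and 936 and its partner chain Col1a2 587 and 506, so that their read ratio moved from 1.36 to 1.85. Gsn had 608 and 609. These 5 genes made 86.5% of the list's sum. The other members were lower, among them Pdgfra at 46.5 and 51.1 CPM, Pi16 at 9.84 and 13.6, and Dpt, the lowest, at 6.74 and 7.77. All 27 collagen and basement membrane genes were detected, among them Col5a3 (497 and 518) and the basement membrane linker Nid1 (314 and 366). Of secreted matrix proteins Sparc was highest at 1813 and 2033 CPM, and Ogn had no count. In the list of perineurium and meninges Itgb4 led at 674 and 684, and Ptgds, a prostaglandin synthase of the meninges, had 422 and 637.

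Vessel markers were all detected at much lower read shares. The 19 endothelial genes summed to 441 and 469 CPM. The glucose transporter Slc2a1, which is also in the perineurium and meninges list, led at 86.6 and 93.6. Cldn5, a tight junction protein, had 46.9 and 42.2. Eng had 34.7 and 40.3, Flt1 31.4 and 34.7, and the efflux pump Abcb1a 28.9 and 34.5. The 9 pericyte genes summed to 188 and 208 CPM, led by Pdgfrb (53.3 and 61.2), and the 9 smooth muscle genes to 185 and 170 CPM, led by Myh11 (41.3 and 35).

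Among immune cells the macrophage list stood out by detection. All 22 of its genes reached 1 CPM, at 871 and 806 CPM in sum, of which Lyz2, a lysozyme, made 316 and 252. Cd74, the chaperone of class II antigen presentation, had 143 and 151 CPM, the growth factor receptor Csf1r 62.2 and 58.7, RT1-Da 56.3 and 52.4, and Laptm5 34.0 and 41.5. RT1-Da belongs to a family of near-identical class II genes, so its count is uncertain. Lymphocytes were close to the floor. Cd4 had 48.8 and 42.6 CPM, but the chain of the T cell receptor complex Cd3e had 0.109 and 0.328, Cd3d 0.217 and 0.164, and Cd8a 0.435 and 0.328. None of the 6 B cell and none of the 6 natural killer cell genes reached 1 CPM in both libraries, and Klrb1 had no count. Of 9 neutrophil genes 2 did, Csf3r (2.88 and 3.34) and S100a9 (1.14 and 1.80), and Ltf had no count. Kit made most of the mast cell sum (71.1 and 63.4 CPM) and is also a gene of peptidergic neurons, while the mast cell protease Cpa3 had 1.20 and 2.73.

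**Figure D3:**
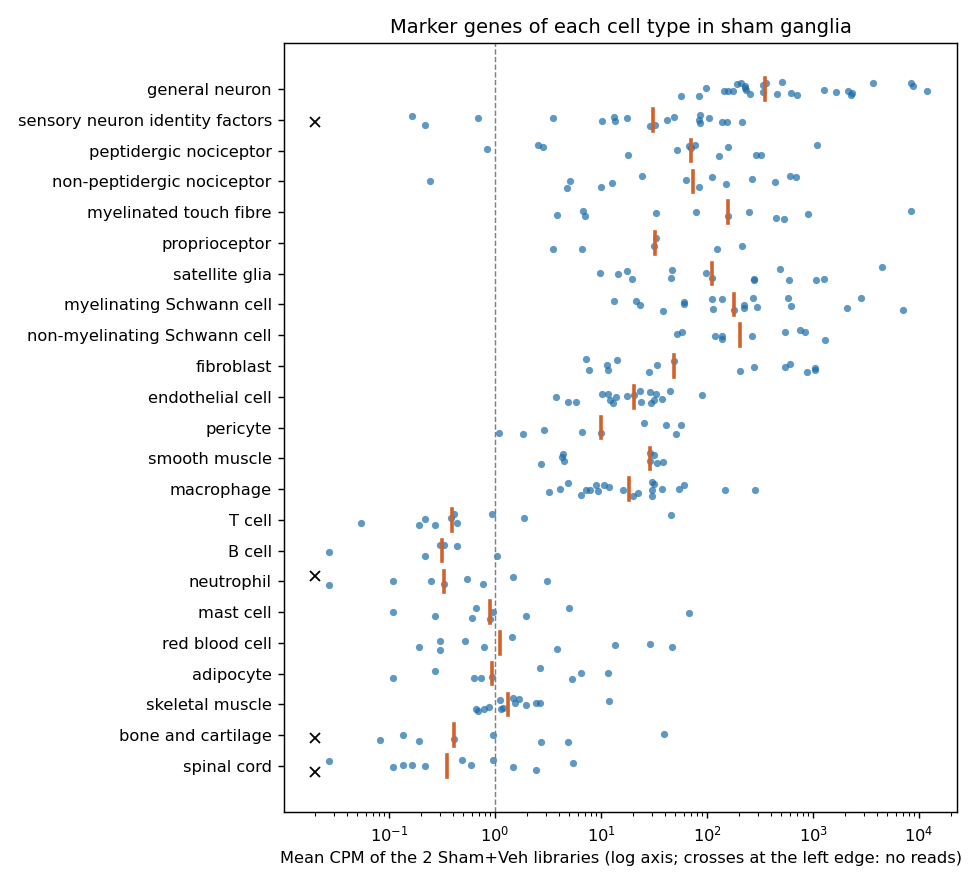
Mean CPM of the 2 libraries (log axis) for each gene of 23 cell type lists; a point is a gene, the bar is the list's median, the dashed line is 1 CPM and a cross at the left is a gene with no count in either library. The medians of the neuronal, glial, fibroblast, vascular, macrophage, red blood cell and skeletal muscle lists lie above 1 CPM. Those of the T cell, B cell, neutrophil, mast cell, adipocyte, bone and cartilage, and spinal cord lists lie below it.

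Etanercept, which another group of the study received, binds TNF. In sham ganglia the receptors of this cytokine were detected, and the ligand was near the floor. Tnf had 0.217 and 0.438 CPM (4 and 8 counts). Tnfrsf1a, the receptor most cells carry, had 51.8 and 50.6 CPM and Tnfrsf1b 3.32 and 3.55, a read ratio of 15.6 and 14.2. Adam17, the protease that sheds Tnf from the membrane, stood close to Tnfrsf1a at 50.2 and 50.0. Of 20 genes of the pathway 17 were detected, led by the ubiquitin ligase Itch (80.1 and 79.4), with Nfkb1 at 48.1 and 53.2 and Map3k7 at 50.5 and 47.7. Of 25 cytokine and chemokine genes 14 were detected. Mif had 99.8 and 97.6 CPM, Il33, an alarm signal kept in nuclei, 87.4 and 106, and Cntf, a factor of Schwann cells, 58.0 and 65.6. Cxcl12 had 42.0 and 57.7 and Il34 33.9 and 34.6. Il6 was at 0.0544 and 0.109 CPM, and Il1a and Csf2 had no count.

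Most markers of tissue around the ganglion did not reach 1 CPM in both libraries. Of 12 spinal cord genes 3 were detected, and the list summed to 11.9 and 12.2 CPM. The inhibitory neuron gene Slc32a1 had no count, Gad2 had 0.0544 CPM and 0, and the motor neuron gene Chat 0.163 and 0.164. P2ry12, used for microglia but also made by some macrophages, was the highest at 5.00 and 5.91. Haemoglobin genes, a mark of blood, led a red blood cell list of 104 and 89.4 CPM in sum; Hba1 had 53.9 and 40.0, and its near-identical copies make the split uncertain. In the bone and cartilage list Col2a1 made most of the sum, at 31.9 and 45.8 CPM, while Matn1 had no count and Acan had 0.163 and 0.109. In the actin family Actc1 of the heart had no count.

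Several gene groups, picked here after their values were seen, sat together on 1 side of the gap between the libraries. Of all compared genes 49.2% were higher and 50.8% lower in Sham+Veh 2, and beyond 1.5-fold the shares were 3.38% and 3.43%. Of the 19 myelinating Schwann cell genes 18 were higher in Sham+Veh 2, with a median log2 ratio of 0.31, and the exception was Sox10 (110 in both). Only Pmp2, a lipid-binding myelin protein, passed 1.5-fold, at 170 and 276 CPM. Of the 27 collagen and basement membrane genes 22 were higher, with a median of 0.13, and none passed 1.5-fold. Other lists leaned the same way. Higher in Sham+Veh 2 were 13 of 15 fibroblast genes, 15 of 19 endothelial genes and 8 of 9 perineurium and meninges genes compared. Of the 13 peptidergic genes 11 were lower, with a median of -0.16, Calca, Tac1, Calcb, Adcyap1 and Trpa1 among them. Of the 16 glycolytic genes 14 were lower, with a median of -0.05. The general neuronal list was near the background, with 17 of 28 lower. What moved these groups was not tested.

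Wider gaps came from lists of tissues other than the ganglion. All 14 skeletal muscle genes were higher in Sham+Veh 2, 11 of them beyond 1.5-fold, with a median log2 ratio of 1.25, and the list summed to 19.7 and 40.2 CPM. Acta1 had 9.35 and 14.2 CPM, the creatine kinase Ckm 1.69 and 3.66, Tnnt3 2.17 and 2.68, Myh1 1.09 and 2.84, and Myl1 0.163 and 3.23. Only Acta1 had a mean count above 100. The other muscle genes lay at 10 to 100, where 25.1% of all genes differed by more than 1.5-fold. A list of liver transcripts, drawn up after their values were seen, went the other way. All 21 of its genes with enough counts were lower in Sham+Veh 2 beyond 1.5-fold, with a median log2 ratio of -3.18 (the 2 other genes had mean counts under 10). Alb, the serum albumin gene, had 83.8 and 7.22 CPM, Cyp2e1 23.5 and 2.57, and Cps1, a urea cycle enzyme, 10.2 and 1.15. The fibrinogen gene Fga had 44 counts and 0. Ass1 (99.4 and 43.5) and Serpina1 (32.8 and 14.3) had narrower gaps and were above 10 CPM in both libraries. Their direction was known when that list was drawn up, so it supports nothing by itself, and where these transcripts came from was not tested. The sums of both lists were small, at 332 and 83.1 CPM for the liver transcripts. In the adipocyte list 5 of the 7 genes compared were lower in Sham+Veh 2 beyond 1.5-fold. Among them were Pck1 (9.90 and 0.766 CPM), which is also in the liver list, Fabp4 (3.86 and 1.42) and Adipoq (1.20 and 0.656). Lpl, the highest of that list, went the other way at 8.21 and 15 CPM, and Cfd had 6.53 and 6.40. Of the 7 mast cell genes compared 5 were higher beyond 1.5-fold. These 5 mast cell and 5 adipocyte genes all had mean counts of 10 to 100, where the share over all genes was 25.1%.

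**Figure D4:**
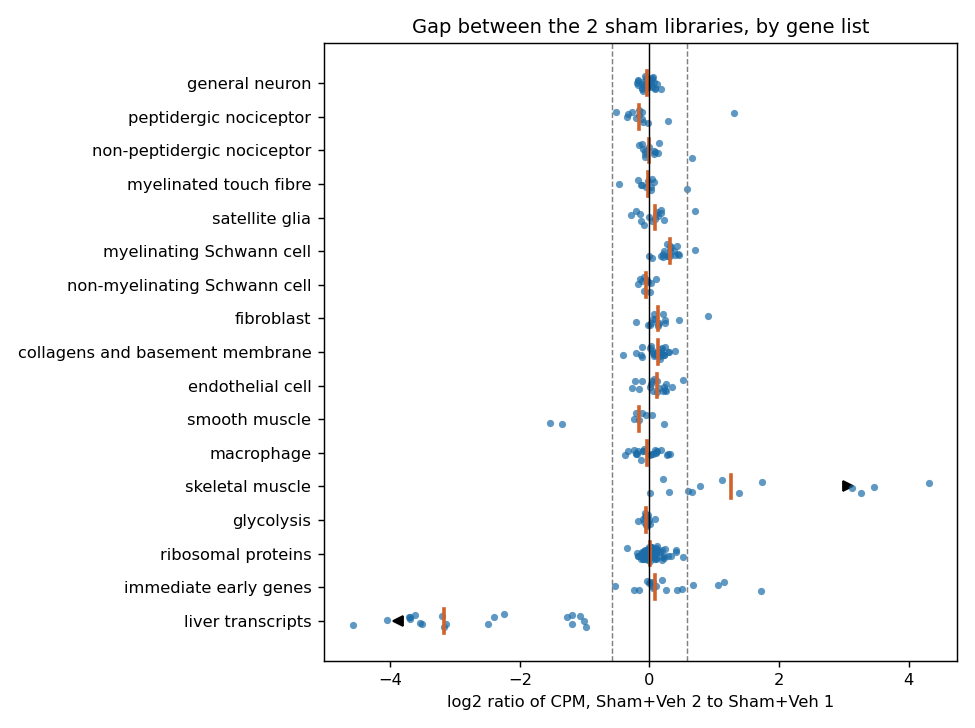
log2 ratio of CPM of Sham+Veh 2 to Sham+Veh 1 (horizontal axis) for genes with a mean count of at least 10 in 17 lists; a point is a gene, the bar the list's median, dashed lines 1.5-fold, and black triangles are bounds for genes with no count in 1 library, set at 3 counts. Skeletal muscle genes lie to the right of 0 and liver transcripts to the left, while most points of the other lists stay between the dashed lines.

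Single genes with wide gaps were of mixed kinds. Among genes with a mean count of at least 100, those highest in Sham+Veh 2 were Ndufa10l1, Vwa5a, Smad9, Tprkb, Hoxa5, Prrg3, Wbp11, H3f3c, Srd5a2 and Fos. Vwa5a had 404 and 3720 counts, or 22 and 203 CPM. Smad9, a mediator of BMP signals, had 5.65 and 33.6 CPM, and Fos, an activity-induced factor, 4.02 and 8.91. The lowest were Wbp11l1, Impad1, Alb, Myom3, Cyp2e1, Cps1, Snrpg, Dsp, Nqo2 and Tnni3k. Impad1 had 330 counts in Sham+Veh 1 and 0 in Sham+Veh 2, at least 109-fold lower against a floor of 3 counts in that library. Of the 167 genes that passed 1.5-fold at this depth, 29.9% had provisional symbols, against 5.59% of all genes compared.

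Part of these gaps lay between a gene and its like-named copy. Wbp11 had 341 and 927 counts and Wbp11l1 598 and 0, but their sums were 939 and 927. For this pair both members passed 1.5-fold while the sum did not, which was the case for 1 of 259 pairs of like-named genes. Ndufa10l1 moved from 28 to 348 counts, beside 4552 and 4410 for Ndufa10. In 2 pairs, Mboat7 with Mboat7l1 and Rsl1d1 with Rsl1d1l1, the 2 members had equal rounded counts in both libraries (380 and 429, and 585 and 572). The counts of such pairs are uncertain gene by gene. How the counting divided shared reads is not given in the sources used here.

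Hox genes, which record the position of a cell along the body axis, were gathered as a set after their values were seen. Of 39 in the table, 28 reached 1 CPM in both libraries. Groups 4 to 10 held 21 detected genes of 22 and summed to 187 and 213 CPM. Among them Hoxa10 was highest on average, at 20.9 and 22.7, followed by Hoxd8 (20.1 and 21.3). The exception was Hoxa6 with 1 count and 0. In group 1 Hoxd1 had 19.4 and 20.2 CPM. Group 11 had 5.71 and 9.68 CPM, and in groups 12 and 13 none of 6 genes was detected: 5 had no count and Hoxc12 had 1 count in Sham+Veh 2. Hoxa5 had the widest gap between the libraries among the 28 detected genes, at 7.12 and 23.4 CPM.

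**Figure D5:**
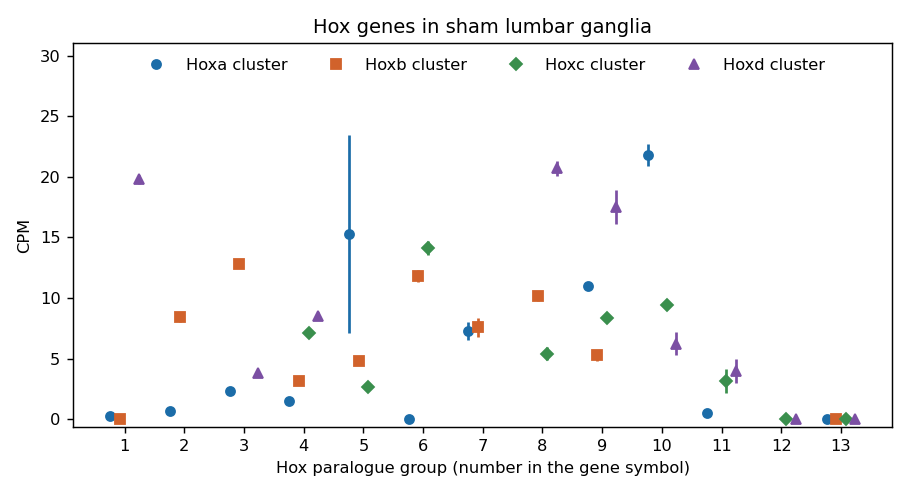
CPM (vertical axis, linear) of the Hox genes by paralogue group, the number in the gene symbol (horizontal axis); a marker is the mean of the 2 libraries in a cluster's own shape and the line spans both libraries. No gene of groups 12 and 13 leaves the base line, and the long line at group 5 is Hoxa5.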

How the data were processed

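Ganglia went into RNAlater and then Trizol, RNA had to reach a RIN of 8.0, and reads came from the BGISEQ-500, per the labels' protocols. The authors deposited expected counts, which are read estimates for each gene and need not be whole. The build is Rnor_6.0 per the submitters' processing notes. Not given in the sources used here are the aligner, the counter, how it treated strand, and the gene models. Only 24.9% of the nonzero sham values were whole. Counts were rounded, blank genes (2907) were read as 0, and CPM was computed with Python 3.11.15 and pandas 2.3.3; TMM and size factors for the alternatives came from edgeR 4.0.16 and DESeq2 1.42.0. No group was compared with another, so neither tool tested anything. Ranks per length, planned at the start, could not be run without transcript lengths.

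The members and the 40 gene lists and 35 families were chosen with earlier results of these data known. The lists of liver transcripts, immediate early genes and ribosomal proteins and the Hox set were added after values were seen. Named were the 20 highest genes, the 5 highest members of each list described and any at 0, the TNF genes, and the 10 widest gaps each way at a mean count of at least 100. Further members were chosen after their values were seen. Provisional symbols and mitochondrially encoded genes are not named, and some genes that the rule takes are not reported here. Intervals are exact (Clopper-Pearson). The gap measure was tested on simulated counts with sampling noise only and changes planted at a mean count of at least 100. The spread between the 2 libraries exceeded that noise, so the simulation does not show how the measure behaves on them.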

Additional observations from a re-analysis of the deposited data

How the results depend on the processing

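Of 362 recomputed values for 99 results, 318 moved by no more than the replicate SD, or a count by no more than 1.5-fold. The other 44 moved further. A change of direction was looked for only in paralogue ratios from the counts as deposited, and 0 were found. Without Sham+Veh 2, the ratios of Trpv1 to Trpm8 (0.9937), Eno2 to Eno1 (0.9856) and Ldhb to Ldha (0.9919) fell below 1. All 98 values without Sham+Veh 1 and all 98 without Sham+Veh 2 were among the 318. Leaving out 1 of 2 libraries cannot move a mean by more than that SD, so those that are means say little. Detected genes, a count, were 14368 without Sham+Veh 1 and 14404 without Sham+Veh 2, against 14118. Detected genes ran from 13249 at 2 CPM to 14862 at 0.5 CPM. Without the 10 highest genes the share of the 100 highest was 14.8%, not 20.2%. The median level went from 25.17 to 25.05 CPM with TMM over all 6 libraries. At a mean count of at least 100 the libraries agreed within 1.5-fold for 98.6% of genes, not 93.2%, so depth limits what low genes show. Without its highest member, the sum in CPM went from 47639 to 35808 for general neurons, 8818 to 4336 for satellite glia, 4743 to 3697 for fibroblasts, 455 to 365 for endothelium and 838 to 555 for macrophages. Of 40 lists, 39 moved this way by more than the SD. Ranks, lists and ratios per length were not run, as no transcript lengths were at hand. No paired analysis was possible because only 1 group was described.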

Other observations

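Lipid supply was a further well-read group. All 20 cholesterol and lipid genes were detected, at 14108 and 14987 CPM in sum, and 16 of the 20 were higher in Sham+Veh 2 (background 49.2%). None passed 1.5-fold, and at their mean counts, all above 1000, no more than 0.304% of all genes did. After Apoe, Scd2, Apod and Hmgcs1 came Fasn. Of 19 complement genes 18 were detected. The regulators that protect cells from complement, Cd59 (646 and 641 CPM) and Cd55 (273 and 260), led the list, and C1s had 105 and 122, Serping1 97.1 and 119, and C1r 99.4 and 110. The central component C3 stood at 13 and 10.4.

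All 76 ribosomal protein genes were detected and took 1.52% and 1.54% of the counts, a median of 181 CPM a gene. Of 18 immediate early genes, a list drawn up after their values were seen, 13 were higher in Sham+Veh 2 (49.2% of all genes compared were), and 4 were higher beyond 1.5-fold (3.38% of all): Fos, Fosb (1.52 and 5.03), Cyr61 (5.98 and 12.5) and Klf4 (5.82 and 9.24). Jun, the highest of the 18, had 120 and 102 CPM. The median log2 ratio of the list was 0.08. Its values were known when it was drawn up, so these shares support nothing by themselves.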
